A study of Mus musculus with 12 samples.

Results

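The genes described here copy DNA in S phase. They are 45 genes taken by name from the deposited expression table of 23446 genes: the cyclin E kinase and 2 E2F factors that open S phase, the proteins that license and fire origins, primase and the replicative polymerases, the sliding clamp and its loader, the enzymes of deoxynucleotide supply, and the proteins that restore chromatin behind the fork. All 45 were in the table, all had at least 10 reads over the 12 libraries, and all 45 passed the filter on low counts that left 12230 genes for testing. Messenger RNA came from C2C12, an established mouse myoblast line; myoblasts are muscle precursor cells that divide in growth medium and fuse into myotubes in differentiation medium. The 4 groups had 3 libraries each: growth medium with PBS (GM-PBS), growth medium with acetoacetate (GM-AA), differentiation medium with PBS (DM-PBS) and differentiation medium with acetoacetate (DM-AA). Each treatment lasted 12 h; the total time in differentiation medium is not given in the sources used here. Acetoacetate is a ketone body, a fuel that the liver makes from fatty acids in fasting, and PBS, a buffered salt solution, was its control. The labels name no genetic change in any group. Whether libraries of 1 group are separate cultures is not stated in the labels, so each p-value measures the spread between these libraries, which may be technical.

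A replication origin is licensed in G1, when the origin recognition complex, Cdc6 and Cdt1 load the ring of Mcm2 to Mcm7 on DNA. The kinases Cdk2 with cyclin E and Cdc7 with Dbf4 then turn the ring into a moving helicase with the GINS complex, and primase, the polymerases and the clamp Pcna follow. Many of the genes are targets of E2F transcription factors, which the retinoblastoma protein holds back in resting cells, so their messages rise and fall with entry into the cell cycle. Muscle precursors must leave the cycle before they fuse, and C2C12 cells do so over days in differentiation medium.

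The libraries held 7959519 to 9893564 reads in genes. Single members had from 20 reads in a library (Rfc4 and Pole2) to 4559 (Rrm2), so the members with few reads, Rfc4, Pole2, Ung and Ccne2, carry wide errors. The genes listed as myoblast markers, Myod1, Myf5, Pax7, Des, Myog and Cdh15, were read in every library, with Myod1 at 163 to 232 CPM, counts scaled to a common library size. Of these, Myog is also the factor that starts differentiation. How strand and multiply matching reads were handled is not given in the sources used here, and several members share sequence with other genes. Exons of genes on the opposite strand cover 84.2% of Fen1, 67.3% of Gins2 and 52.5% of Chaf1a, and processed pseudogenes at 95% identity or more cover 72.8% of the Mcm7 transcript, 51.5% of Pcna and 44.3% of Uhrf1. Smaller shares of other members are covered too. Processed pseudogenes cover 27.3% of Rfc5, 26.05% of Cdc6, 19.1% of Rrm2 and 17.3% of Tyms, and opposite-strand exons cover 17.4% of Ccne2. Counts of all these genes are uncertain to that extent.

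The promoters of the members were read first. The members were taken by name and not by promoter letters. Many are E2F targets, as said above, so their share of E2F words is not independent of that choice. A RefSeq window from 250 bases before to 50 bases after the transcription start (GRCm38.p6) was found for 39 of the 45 members, 48 windows in all; Ccne2, Mcm4, Gins1, Gins2, Prim2 and Pole had none in the table. Both strands were searched for the E2F words TTTCCCGC, TTTCGCGC, TTTGCCGC and TTTGGCGC. A word was found in 17 of the 39 members (43.6%) and in 704 of 27025 genes with a window (2.605%). The CCAAT word, bound by NF-Y, was found in 21 of the 39 members (53.8%) and in 41.1% of all genes, and the GC box GGGCGG in 30 (76.9%) and in 38.2%. The word TTTGAA, part of the cell cycle homology region of mitotic promoters, was found in 6 of the 39 (15.4%) and in 20.2% of all genes. The GC box can share letters with the GC-rich ends of the E2F words, and the members' windows were richer in GC than all windows, with medians of 61.8% and 52.7%. A match is a run of letters and was not tested for binding.

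Of the 17 members with an E2F word, 9 had it before the start: Cdk2, Cdc6, Mcm5, Mcm6, Mcm7, Pola1, Rfc3, Uhrf1 and Dnmt1. Their stretches are shown because, of the motifs searched, the E2F words differed most in share between members and all genes; 22 of the 39 members, among them Mcm2, Prim1 and Chaf1b, have no word. Each is written 5′ to 3′ on the gene's strand, up to 30 bases either side of a word, with the word in capitals. A word on the other strand reads as its reverse complement, such as GCGGGAAA for TTTCCCGC.
Cdk2, chr10:128705154-128705221, minus strand: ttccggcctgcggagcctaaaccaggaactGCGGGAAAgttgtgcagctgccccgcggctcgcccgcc
Cdc6, chr11:98907983-98908050, plus strand: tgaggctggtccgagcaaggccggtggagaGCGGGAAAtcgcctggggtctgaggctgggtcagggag
Mcm5, chr8:75109326-75109397, plus strand: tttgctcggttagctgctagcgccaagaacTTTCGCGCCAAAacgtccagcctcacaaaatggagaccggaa
Mcm6, chr1:128359715-128359845, minus strand: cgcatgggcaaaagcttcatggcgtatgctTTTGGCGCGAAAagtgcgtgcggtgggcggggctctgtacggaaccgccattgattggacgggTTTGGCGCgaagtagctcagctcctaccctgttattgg
Mcm7, chr5:138172011-138172078, minus strand: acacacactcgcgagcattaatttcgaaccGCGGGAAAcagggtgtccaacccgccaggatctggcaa
Pola1, chrX:93632256-93632323, minus strand: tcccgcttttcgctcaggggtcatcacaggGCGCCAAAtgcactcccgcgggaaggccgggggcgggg
Rfc3, chr5:151651209-151651248, minus strand: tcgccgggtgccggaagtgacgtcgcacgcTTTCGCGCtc
Uhrf1, chr17:56304098-56304165, plus strand: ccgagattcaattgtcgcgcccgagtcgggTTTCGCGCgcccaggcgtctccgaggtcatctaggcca
Dnmt1, chr9:20952805-20952872, minus strand: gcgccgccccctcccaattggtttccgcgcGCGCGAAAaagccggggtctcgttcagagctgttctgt
In Mcm5 and Mcm6 a pair of words on opposite strands overlapped and made a palindrome-like run, and Mcm6 had another word nearer the start. The words of Cdk2, Cdc6 and Pola1 lay at nearly the same distance from the start, from base -140 to -133 in Cdk2 and from -138 to -131 in Cdc6 and Pola1. The last 120 bases before the start of Dbf4 and of E2f2 are shown because these members, like Rfc3 above, were not called lower in differentiation medium.
Dbf4, chr5:8422717-8422836, minus strand: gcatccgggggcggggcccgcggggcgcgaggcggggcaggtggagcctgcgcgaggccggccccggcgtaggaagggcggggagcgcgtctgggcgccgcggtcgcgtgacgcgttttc
E2f2, chr4:136172154-136172273, plus strand: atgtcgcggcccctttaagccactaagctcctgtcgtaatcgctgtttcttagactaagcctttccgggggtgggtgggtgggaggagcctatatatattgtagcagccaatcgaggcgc
Neither stretch holds one of the 4 words, and E2f2 has one after the start, at bases 39 to 46, and none in its other window. Dbf4 had none in its window. Rfc3 has a pair, 1 of them before the start. Like E2f2, the members Mcm7, Uhrf1, Dnmt1 and Lig1 have a word in 1 window and none in any other window of theirs. In DM against GM with PBS, 15 of the 17 members with a word were called lower, and 21 of the 22 without one. Of all tested genes 27.4% were lower.

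**Figure D1:**
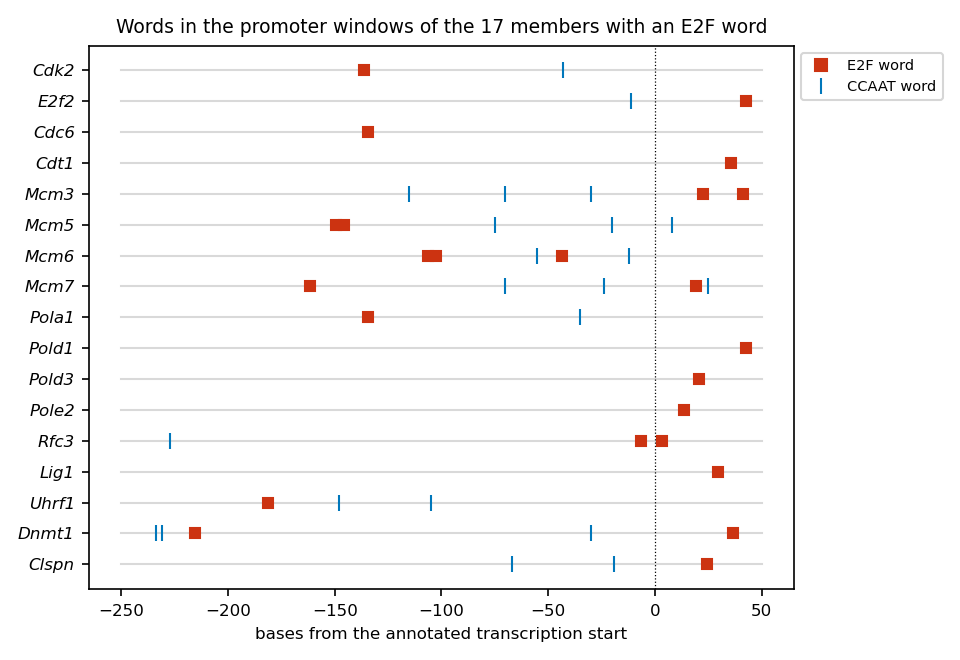
Position of E2F words (red squares) and CCAAT words (blue ticks) in the 17 members with an E2F word, for the window that holds it. The horizontal axis gives bases from the annotated start (dotted line). In 9 members a red square lies before the start, and in the others only after it.

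Levels between genes were compared per length, as the deposited RPKM (reads scaled for exon length and library size, mean ± SD, n = 3 libraries). In GM-PBS the clamp Pcna stood highest at 186 ± 10.5 RPKM, followed by the ribonucleotide reductase subunit Rrm2 at 153 ± 6.01. Next came a group whose values lay close together: Mcm6 at 49.1 ± 1.88, the flap endonuclease Fen1 at 48.4 ± 1.501, Mcm3 at 47.8 ± 0.185 and Mcm2 at 44.2 ± 2.301. The spreads of Mcm6, Fen1 and Mcm3 overlapped, so their order was not resolved. The lowest members were Ung at 3.04 ± 0.272, Rfc4 at 3.03 ± 0.102, Ccne2 at 2.82 ± 0.194 and Pole2 at 2.42 ± 0.509, whose spreads also overlapped or nearly met. Partners in 1 complex were not level: the large ribonucleotide reductase subunit Rrm1 had 40.1 ± 1.198 RPKM beside Rrm2, and the loader subunits Rfc3 and Rfc5 had 15.97 ± 0.992 and 11.1 ± 1.12 beside Rfc4. The 6 ring subunits Mcm2 to Mcm7 lay between 27.1 ± 0.612 (Mcm5) and 49.1 ± 1.88 (Mcm6).

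Nearly the whole set was lower in differentiation medium. With PBS in both media, 42 of the 45 members were lower in DM than in GM at a 5% false discovery rate (FDR), 1 was higher (E2f2) and 2 did not pass (Dbf4 and Rfc3); of all 12230 tested genes 27.4% were lower and 27.0% higher. The median log2 fold change was -1.10 over the members and 0.01 over all genes. In 28 members the fitted level in DM was at most 50% of that in GM, a fall that 3.393% of all genes showed. The 3 libraries of DM-PBS lay wholly below the 3 of GM-PBS in 43 members, against 29.7% of all genes. The summed level of the 45 members was 4837, 4901 and 4790 CPM in the GM-PBS libraries and 2252, 2273 and 2239 CPM in the DM-PBS libraries. In bulk RNA, fewer cells in S phase and less message per cell cannot be told apart. P-values here and below are from edgeR's quasi-likelihood test with Benjamini-Hochberg adjustment over all tested genes, fold changes are log2 with their SE, and levels are CPM scaled by TMM, which corrects for differences in library composition.

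Among the genes that open S phase, both E cyclins, the partners that activate Cdk2, fell furthest. Ccne2 was read at 13.9, 15.4 and 13.6 CPM in GM-PBS and at 2.54, 2.96 and 2.76 in DM-PBS, a log2 fold change of -2.38 ± 0.15 (edgeR adjusted p = 4.98e-15). Ccne1 was read at 52.7, 56.4 and 60.5 CPM and at 16.6, 16.3 and 17.6, a log2 fold change of -1.75 ± 0.084 (edgeR adjusted p = 1.80e-18). Every DM library lay below every GM library for both cyclins. The kinase Cdk2 fell less, from 82.7, 92.2 and 86.04 CPM to 52.5, 50.6 and 47.1, a log2 fold change of -0.79 ± 0.061 (edgeR adjusted p = 4.23e-13). The 2 activator E2F factors moved apart. E2f1 fell from 113, 105 and 109.5 CPM to 41.7, 38.1 and 45.8, a log2 fold change of -1.38 ± 0.063 (edgeR adjusted p = 4.06e-19). E2f2 was read at 48.8, 52.4 and 46.5 CPM in GM and at 57.2, 59.2 and 57.5 in DM, without overlap, a log2 fold change of 0.24 ± 0.063 (edgeR adjusted p = 0.00204). It is the single member that was higher in DM with PBS.

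**Figure D2:**
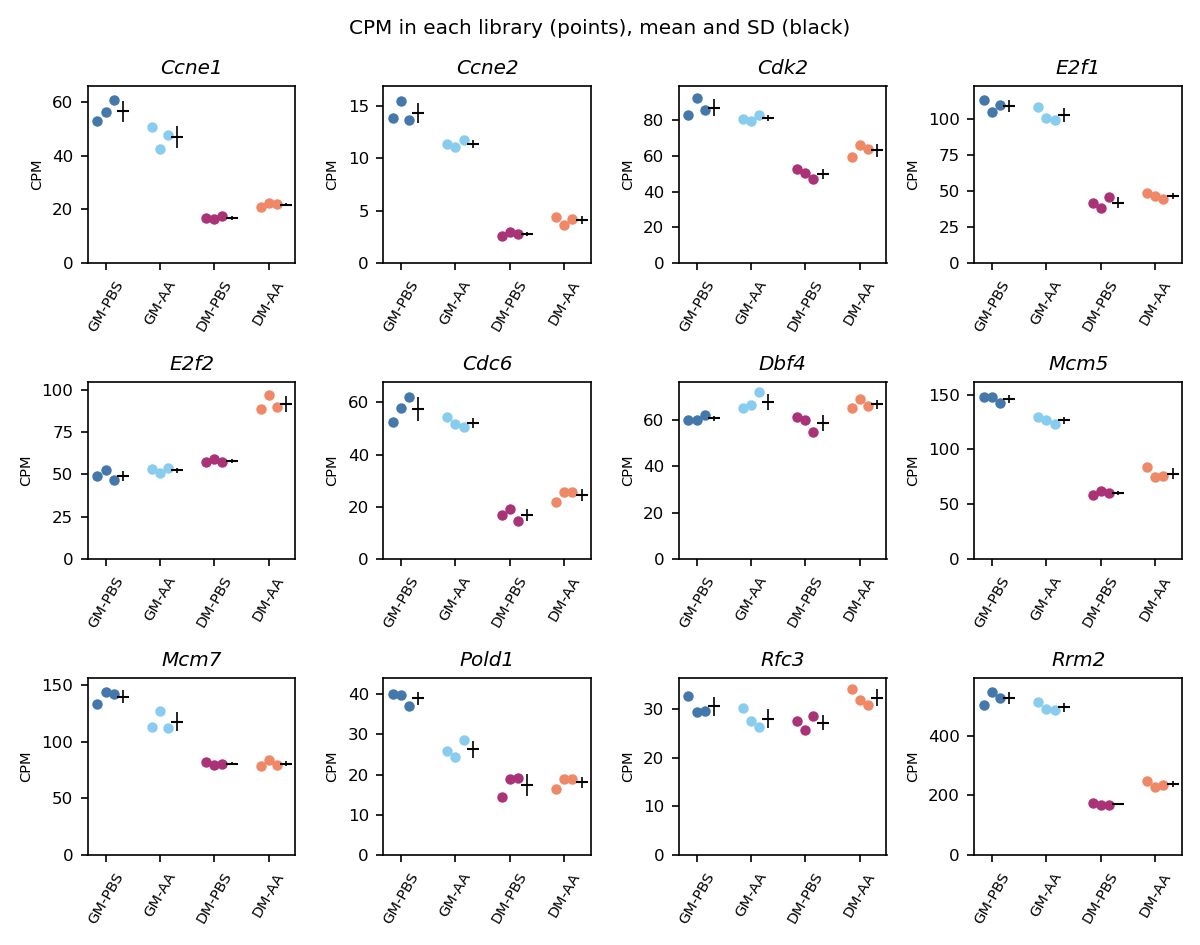
CPM of 12 members in each library (coloured points, 3 per group), with the mean and SD in black beside them; each vertical axis starts at 0. In 9 of the panels DM-PBS lies far below GM-PBS, while E2f2, Dbf4 and Rfc3 do not show that fall.

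Of the 13 licensing and firing genes, 12 fell in DM and Dbf4 did not pass. The loader Cdc6 fell most, from 52.5, 57.95 and 61.9 CPM to 16.7, 18.99 and 14.4, a log2 fold change of -1.78 ± 0.089 (edgeR adjusted p = 5.94e-18), and the groups lay far apart. The 6 ring subunits fell by 0.79 (Mcm7) to 1.40 (Mcm2) on the log2 scale. Mcm2 was read at 249, 226 and 229.5 CPM and then at 93.5, 85.6 and 88.2. Cdc7 and Dbf4 are the kinase and the regulatory subunit of 1 enzyme, and they differed here. Cdc7 was read at 40.5, 36.02 and 36.7 CPM in GM and 16.9, 19.7 and 20.1 in DM, a log2 fold change of -1.01 ± 0.085 (edgeR adjusted p = 4.38e-12). Dbf4 was read at 60.1, 60.1 and 61.98 CPM in GM and 61.2, 60.05 and 54.6 in DM, so the groups overlapped. Its log2 fold change was -0.05 ± 0.061 with a 95% interval of -0.17 to 0.07 (edgeR adjusted p = 0.528). Cdt1, Mcm10, Gins1 and Gins2 fell by 0.99 (Gins1) to 1.22 (Mcm10) on the log2 scale.

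All 8 primase and polymerase genes fell in DM, with a median of -1.07. Prim1, the catalytic subunit of primase, fell most, from 32.4, 44.2 and 35.6 CPM to 15.4, 17.02 and 11.9, a log2 fold change of -1.33 ± 0.11 (edgeR adjusted p = 6.98e-12). Its partner Prim2 fell by 0.76 and the accessory subunit of polymerase delta Pold3 by 0.67, the smallest fall in this group. Pole, the catalytic subunit of the leading-strand polymerase, was read at 84.4, 82.7 and 78.5 CPM and then at 40.00, 40.7 and 33.8, a log2 fold change of -1.10 ± 0.069 (edgeR adjusted p = 2.24e-15). No DM library of Prim1 or Pole reached the lowest GM library.

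Of the 8 genes for the clamp, its loader, single-strand binding and Okazaki joining, 7 fell. Pcna was read at 378, 383 and 345 CPM in GM and 152, 158 and 159 in DM, a log2 fold change of -1.24 ± 0.067 (edgeR adjusted p = 5.37e-17). Fen1, which trims the flaps of Okazaki fragments, fell most, from 175, 164 and 169.8 CPM to 65.8, 69.7 and 70.3, a log2 fold change of -1.31 ± 0.051 (edgeR adjusted p = 9.63e-21). For both genes the groups were far apart. The 3 loader subunits differed: Rfc4 fell by 0.89 and Rfc5 by 0.56, while Rfc3 was read at 32.8, 29.4 and 29.6 CPM in GM and 27.5, 25.6 and 28.6 in DM. The Rfc3 libraries did not overlap, yet its log2 fold change of -0.17 ± 0.083 did not pass (95% interval -0.33 to -0.01, edgeR adjusted p = 0.0863). Rpa1, Rpa2 and the ligase Lig1 fell by 0.99 to 1.13.

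All 5 genes of deoxynucleotide supply and uracil removal fell, and the 2 subunits of ribonucleotide reductase fell unequally. Rrm2, the subunit whose level is tied to S phase, was read at 505, 546 and 528 CPM in GM and 176, 168 and 168 in DM, a log2 fold change of -1.62 ± 0.049 (edgeR adjusted p = 6.17e-24). Rrm1, its stable partner, was read at 251, 261 and 246 CPM and 162, 159 and 148, a log2 fold change of -0.69 ± 0.051 (edgeR adjusted p = 1.54e-13). Both falls were without overlap. Thymidylate synthase Tyms and thymidine kinase Tk1 fell by 0.70 and 0.78, and the uracil glycosylase Ung, from few reads, by 1.48.

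All 6 genes for chromatin copying, the fork checkpoint and histone messages fell, with a median of -1.26. Chaf1b, a subunit of the chromatin assembly factor that sets histones on new DNA, fell most, from 37.4, 44.2 and 41.3 CPM to 12.1, 13.6 and 10.3, a log2 fold change of -1.77 ± 0.099 (edgeR adjusted p = 1.02e-16). Uhrf1, which guides the methyltransferase Dnmt1 to new DNA, was read at 248, 253 and 254 CPM and then 103, 109 and 106, a log2 fold change of -1.25 ± 0.05 (edgeR adjusted p = 1.49e-20). The groups were far apart for both. Dnmt1 itself fell by 0.85, Slbp, the stem-loop binding protein of histone messages, by 0.84, and the checkpoint adaptor Clspn by 1.45. No call in this comparison of media changed for any member when 1 library was left out or under any other setting tried.

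Acetoacetate in differentiation medium was followed by a rise of the set. In DM, 27 of the 45 members were higher with acetoacetate than with PBS and none was lower, against 12.6% of all tested genes higher and 13.8% lower. At an unadjusted p under 0.05 the counts were 32 and 0, and DESeq2's Wald test called 22 higher and 0 lower. The median log2 fold change was 0.25 over the members and 0.00 over all genes, a median fold of 1.19, and 44 of the 45 were above 0. The 3 DM-AA libraries lay wholly above the 3 DM-PBS libraries in 32 members, against 19.9% of all genes. The summed level was 2766, 2677 and 2765 CPM in the DM-AA libraries, all above the 3 DM-PBS libraries given before and all below the GM libraries. Each rise was modest: the largest was 0.66 (E2f2) on the log2 scale.

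Of the 5 genes that open S phase, 4 rose with acetoacetate in DM and E2f1 did not pass. E2f2 was read at 57.2, 59.2 and 57.5 CPM with PBS and 88.4, 97.00 and 89.7 with acetoacetate, far apart, a log2 fold change of 0.66 ± 0.058 (edgeR adjusted p = 9.43e-11). Ccne2 was read at 2.54, 2.96 and 2.76 CPM and 4.42, 3.67 and 4.19, also without overlap but from few reads, a log2 fold change of 0.58 ± 0.2 (edgeR adjusted p = 0.0373). Its call was lost without library 1, 2 or 3 of DM-PBS or library 1 or 3 of DM-AA, with adjusted p between 0.0502 and 0.132. Ccne1 rose from 16.6, 16.3 and 17.6 CPM to 21.00, 22.2 and 21.9, a log2 fold change of 0.37 ± 0.099 (edgeR adjusted p = 0.00539). Cdk2 rose from 52.5, 50.6 and 47.1 CPM to 59.4, 66.4 and 63.8, a log2 fold change of 0.33 ± 0.064 (edgeR adjusted p = 0.000145). E2f1 was read at 48.5, 46.4 and 44.4 CPM with acetoacetate, where 2 of the 3 libraries lay above all PBS libraries, and its log2 fold change was 0.15 ± 0.071 (edgeR adjusted p = 0.123, and 0.0396 without library 3 of DM-PBS).

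Of the 13 licensing and firing genes, 10 rose with acetoacetate in DM. Cdc6 was read at 16.7, 18.99 and 14.4 CPM with PBS and 21.7, 25.6 and 25.8 with acetoacetate, without overlap, a log2 fold change of 0.54 ± 0.1 (edgeR adjusted p = 0.000127). Cdt1, its partner in loading the ring, rose by 0.38 ± 0.071 (edgeR adjusted p = 8.83e-05). Of the ring, Mcm2, Mcm3, Mcm4, Mcm5 and Mcm6 rose by 0.21 (Mcm4) to 0.38 (Mcm2), and Mcm7 did not pass. Mcm5 was read at 58.6, 61.9 and 60.5 CPM and 83.6, 74.7 and 75.4, a log2 fold change of 0.37 ± 0.058 (edgeR adjusted p = 7.85e-06). Mcm7 was read at 82.05, 79.7 and 79.9 CPM and 78.7, 83.4 and 79.8, with overlapping groups and a log2 fold change of 0.00 ± 0.058 (95% interval -0.11 to 0.11, edgeR adjusted p = 0.994); reads of its pseudogene may be among them. Mcm10 rose by 0.36. Gins1 and Gins2 had log2 fold changes of 0.31 ± 0.14 and 0.25 ± 0.12 and did not pass.

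Both subunits of the Cdc7 kinase were called higher with acetoacetate in DM. Cdc7 had a log2 fold change of 0.32 ± 0.093 (edgeR adjusted p = 0.00942, and 0.0982 without library 1 of DM-PBS). Dbf4 was read at 61.2, 60.05 and 54.6 CPM with PBS and 65.2, 68.95 and 66.2 with acetoacetate, a narrow gap. Its log2 fold change was 0.18 ± 0.061 (edgeR adjusted p = 0.0213), and the call was lost without library 3 of DM-PBS or library 2 of DM-AA (adjusted p 0.0907 to 0.119) and after removal of the GC and length trend (adjusted p 0.212).

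Of the 8 primase and polymerase genes, 4 rose in DM. Prim1 was read at 15.4, 17.02 and 11.9 CPM with PBS and 19.8, 22.5 and 20.8 with acetoacetate, without overlap, a log2 fold change of 0.51 ± 0.13 (edgeR adjusted p = 0.00308). Pola1, the catalytic subunit of polymerase alpha, rose by 0.26 (edgeR adjusted p = 0.00986). Pold3 and Pole rose by 0.21 and 0.22, and both calls were lost when any 1 of several libraries was left out. Pold3 lost its call without library 1 or 2 of DM-PBS or library 1 or 3 of DM-AA (adjusted p 0.0603 to 0.208), and Pole without library 3 of DM-PBS or library 1 or 3 of DM-AA (adjusted p 0.12 to 0.203). Prim2, Pola2, Pold1 and Pole2 did not pass, with log2 fold changes of -0.04 (Prim2) to 0.12 (Pole2). Prim2 was the single member of the 45 below 0 in this comparison.

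In the clamp and Okazaki group 3 of 8 rose. Fen1 was read at 65.8, 69.7 and 70.3 CPM with PBS and 95.4, 91.1 and 96.3 with acetoacetate, far apart, a log2 fold change of 0.46 ± 0.055 (edgeR adjusted p = 5.48e-08). Rpa1, the large subunit of the single-strand binding protein, rose by 0.25 (edgeR adjusted p = 0.000562). Rfc3 rose by 0.25 ± 0.082 (edgeR adjusted p = 0.0239), a call lost without library 1 or 2 of DM-PBS or library 1 of DM-AA (adjusted p 0.0571 to 0.111) and after removal of the GC and length trend (adjusted p 0.107). Pcna, the highest member per length in GM-PBS, was read at 183, 164 and 168 CPM with acetoacetate, above all 3 PBS libraries, and its log2 fold change of 0.13 ± 0.07 did not pass (edgeR adjusted p = 0.16). Rfc4, Rfc5, Rpa2 and Lig1 lay at 0.19 to 0.33 and did not pass.

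The 2 ribonucleotide reductase subunits rose in DM and the other 3 genes of their group did not pass. Rrm2 was read at 176, 168 and 168 CPM with PBS and 250.3, 229 and 236 with acetoacetate, far apart, a log2 fold change of 0.48 ± 0.05 (edgeR adjusted p = 2.88e-09). Rrm1 was read at 162, 159 and 148 CPM and 192, 167 and 180.3, a smaller step, with a log2 fold change of 0.20 ± 0.052 (edgeR adjusted p = 0.00391). Tyms, Tk1 and Ung lay at 0.12, 0.06 and 0.16.

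Of the 6 chromatin, checkpoint and histone message genes, 4 rose. Clspn was read at 36.2, 35.8 and 34.4 CPM with PBS and 49.5, 44.7 and 52.8 with acetoacetate, without overlap, a log2 fold change of 0.46 ± 0.071 (edgeR adjusted p = 4.63e-06). Chaf1a rose from 72.9, 66.6 and 67.2 CPM to 94.3, 88.3 and 89.6, also without overlap, a log2 fold change of 0.39 ± 0.058 (edgeR adjusted p = 2.42e-06). Uhrf1 rose by 0.28 (edgeR adjusted p = 0.000106) and Dnmt1 by 0.21 (edgeR adjusted p = 0.00958), the latter lost without library 3 of DM-PBS or library 3 of DM-AA (adjusted p 0.0682 to 0.0791). Chaf1b had a log2 fold change of 0.31 ± 0.12 and lay at the threshold (edgeR adjusted p = 0.0504; 0.0261 to 0.0456 without library 1 or 2 of GM-PBS, library 2 of DM-PBS or library 1 of DM-AA). Slbp did not pass at 0.12.

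**Figure D3:**
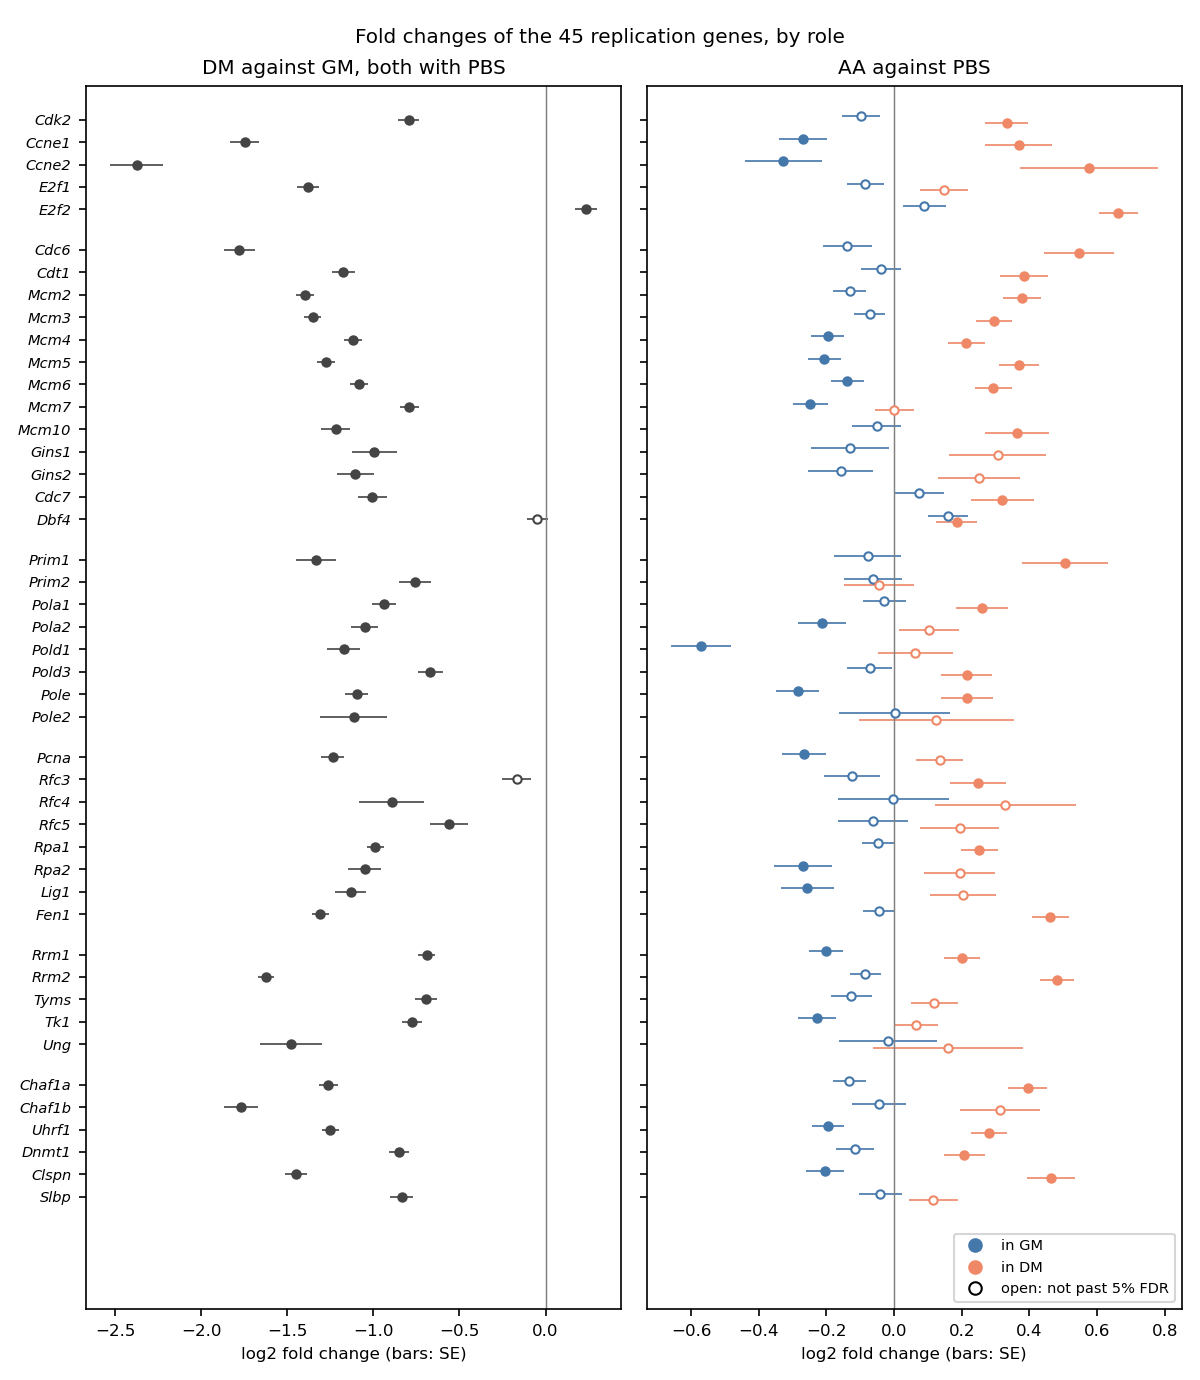
Log2 fold change with SE of each of the 45 members, in blocks by role, for DM against GM with PBS (left, dark points) and for acetoacetate (AA) against PBS (right, blue in GM, orange in DM); the 2 horizontal scales differ and open points did not pass 5% FDR. On the left all points but E2f2 lie below 0, and on the right 44 of the 45 orange points lie above 0 and 41 of the 45 blue points below it.

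In growth medium the shift with acetoacetate had the other sign. In GM, 16 of the 45 members were lower with acetoacetate than with PBS and none was higher, against 11.0% of all tested genes lower and 9.76% higher. At an unadjusted p under 0.05 the counts were 20 lower and 1 higher, and DESeq2's Wald test called 11 lower and 0 higher. Over all genes 1194 were higher and 1340 lower, and 1563 and 1099 with library totals in place of TMM. The median log2 fold change was -0.13 over the members and -0.0034 over all genes, with 41 of 45 below 0. The 3 GM-AA libraries lay wholly below the 3 GM-PBS libraries in 18 members, against 17.6% of all genes. The summed level was 4372, 4500 and 4340 CPM with acetoacetate, below all 3 GM-PBS libraries. Libraries also differed in how counts followed GC content: Spearman's rho between a gene's GC and its deviation was 0.211, 0.00536 and 0.0308 in GM-PBS and -0.177, -0.114 and -0.128 in GM-AA. In DM rho ran from 0.127 to 0.15 with PBS and from -0.148 to -0.0612 with acetoacetate. After removal of that trend and of a length trend, 19 members were lower in GM and 25 higher in DM.

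The largest fall was that of Pold1, the catalytic subunit of polymerase delta. Pold1 was read at 40.1, 39.7 and 37.1 CPM with PBS and 25.8, 24.3 and 28.6 with acetoacetate, far apart, a log2 fold change of -0.57 ± 0.088 (edgeR adjusted p = 1.18e-05). In DM it was read at 14.3, 18.9 and 19.1 CPM with PBS and 16.4, 18.9 and 18.8 with acetoacetate, fully overlapping, and its log2 fold change was 0.06 ± 0.11 (edgeR adjusted p = 0.725). The other 2 polymerase genes that fell in GM were Pole and Pola2. Pole was read at 84.4, 82.7 and 78.5 CPM and 67.8, 67.3 and 66.5, a log2 fold change of -0.28 ± 0.063 (edgeR adjusted p = 0.00121). Pola2, a subunit of polymerase alpha, fell by 0.21 (edgeR adjusted p = 0.0326), a call lost without library 1 or 3 of GM-PBS or library 1 or 2 of GM-AA (adjusted p 0.0757 to 0.237). Prim1, Prim2, Pola1, Pold3 and Pole2 lay at -0.08 to 0.00 and did not pass.

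Of the 13 licensing and firing genes, 4 ring subunits fell in GM. Mcm7 was read at 133, 144 and 142 CPM with PBS and 113, 127 and 112 with acetoacetate, a log2 fold change of -0.25 ± 0.052 (edgeR adjusted p = 0.000673). Mcm5 was read at 148, 148 and 142 CPM and 129.6, 127 and 123, a log2 fold change of -0.21 ± 0.049 (edgeR adjusted p = 0.00251). Neither gene overlapped between groups. Mcm4 fell by 0.20 (edgeR adjusted p = 0.00365) and Mcm6 by 0.14 (edgeR adjusted p = 0.0419). The call of Mcm6 was lost without library 1 or 2 of GM-PBS, library 1 or 3 of GM-AA or library 1 or 2 of DM-PBS (adjusted p 0.0536 to 0.186). Mcm2 missed the threshold at -0.13 ± 0.049 (edgeR adjusted p = 0.0525; 0.0424 without library 2 of GM-PBS), and Mcm3 lay at -0.07. Cdc7 and Dbf4 lay on the other side of 0. Cdc7 was read at 40.5, 36.02 and 36.7 CPM with PBS and 39.7, 40.2 and 39.3 with acetoacetate, overlapping, and did not pass. Dbf4 was read at 60.1, 60.1 and 61.98 CPM with PBS and 65.2, 66.5 and 71.8 with acetoacetate, without overlap. Its log2 fold change of 0.16 ± 0.06 did not pass (edgeR adjusted p = 0.0554; 0.0425 to 0.0457 without library 1 of GM-AA or library 3 of DM-PBS).

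Both E cyclins were called lower in GM. Ccne1 was read at 52.7, 56.4 and 60.5 CPM with PBS and 50.5, 42.3 and 47.7 with acetoacetate, a log2 fold change of -0.27 ± 0.07 (edgeR adjusted p = 0.00539), lost without library 3 of GM-PBS or library 2 of GM-AA (adjusted p 0.0561 to 0.059). Ccne2 was read at 13.9, 15.4 and 13.6 CPM and 11.4, 11.04 and 11.8, without overlap, a log2 fold change of -0.33 ± 0.11 (edgeR adjusted p = 0.0355), lost without library 1 or 2 of GM-PBS or library 1, 2 or 3 of GM-AA (adjusted p 0.0581 to 0.148). Cdk2, E2f1 and E2f2 did not pass, at -0.10 ± 0.057, -0.09 ± 0.055 and 0.09 ± 0.064.

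In the clamp group Pcna, Rpa2 and Lig1 fell in GM. Pcna was read at 378, 383 and 345 CPM with PBS and 276, 359.8 and 284 with acetoacetate, where 1 library reached into the PBS range, a log2 fold change of -0.27 ± 0.064 (edgeR adjusted p = 0.00286). Rpa2 fell by 0.27 (edgeR adjusted p = 0.0211), lost without library 1 or 2 of GM-PBS or library 3 of GM-AA (adjusted p 0.0902 to 0.152). Lig1, which seals Okazaki fragments, fell by 0.26 (edgeR adjusted p = 0.0176), lost without library 1 of GM-PBS or library 2 or 3 of GM-AA (adjusted p 0.0519 to 0.109). Rfc3, Rfc4, Rfc5, Rpa1 and Fen1 lay at -0.13 (Rfc3) to -0.04 (Fen1), or at 0.00 (Rfc4), and did not pass.

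Among the nucleotide genes Rrm1 and Tk1 fell, and Rrm2, which had moved more than Rrm1 in both other comparisons, did not pass. Rrm1 was read at 251, 261 and 246 CPM with PBS and 219, 216 and 224 with acetoacetate, far apart, a log2 fold change of -0.20 ± 0.05 (edgeR adjusted p = 0.00339). Rrm2 was read at 505, 546 and 528 CPM and 513, 489 and 486, overlapping, a log2 fold change of -0.09 ± 0.046 (edgeR adjusted p = 0.191). Tk1 fell from 81.7, 83.4 and 82.8 CPM to 70.8, 72.5 and 68.3, a log2 fold change of -0.23 ± 0.056 (edgeR adjusted p = 0.00333). Of the chromatin and checkpoint genes Uhrf1 fell by 0.19 (edgeR adjusted p = 0.00275) and Clspn by 0.20 (edgeR adjusted p = 0.00829), the latter lost without library 3 of GM-PBS (adjusted p 0.0512). Chaf1a and Dnmt1 lay at -0.13 and -0.12 and did not pass. They passed when 1 library was left out, Chaf1a without library 2 of GM-PBS or library 2 of GM-AA (adjusted p 0.031 to 0.0438) and Dnmt1 without library 2 of GM-AA (adjusted p 0.0325).

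The effect of acetoacetate differed between the media, and this difference was tested directly in the same model. Acetoacetate's effect in DM minus its effect in GM was above 0 in all 45 members. It passed 5% FDR in 27 of them, all with the higher value in DM, against 2.58% of all tested genes higher and 2.67% lower. At an unadjusted p under 0.05 the counts were 38 higher and 0 lower, and DESeq2's Wald test called 21 higher and 0 lower. The median difference was 0.41 on the log2 scale over the members and -0.0011 over all genes. The AA comparisons in GM and in DM share no library. Of the 45 members, 9 were lower with acetoacetate in GM and also higher with it in DM (20.0%), against 32 of all 12230 tested genes (0.262%). They were Ccne1, Ccne2, Mcm4, Mcm5, Mcm6, Pole, Rrm1, Uhrf1 and Clspn. A further 11 (24.4%) passed in neither medium, against 64.3% of all genes.

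By point estimate the differences were largest in these 4 members, whose errors overlap those of others such as Pold1: Ccne2 at 0.90 ± 0.23 (edgeR adjusted p = 0.0153), Cdc6 at 0.68 ± 0.13 (edgeR adjusted p = 0.000695), Clspn at 0.67 ± 0.09 (edgeR adjusted p = 9.20e-06) and Ccne1 at 0.64 ± 0.12 (edgeR adjusted p = 0.000939). They came about in unlike ways. In Cdc6, at -0.14 ± 0.073 in GM, most of it lay in the rise in DM, while the difference of 0.63 ± 0.14 in Pold1 (edgeR adjusted p = 0.00436) lay mostly in its fall in GM. In Mcm5, at 0.58 ± 0.076 (edgeR adjusted p = 7.81e-06), and in Clspn both media contributed. E2f2, at 0.57 ± 0.087 (edgeR adjusted p = 5.32e-05), rose in DM and did not pass in GM. Members with nearly equal effects in both media were Dbf4 at 0.03 ± 0.085 (95% interval -0.14 to 0.19) and Prim2 at 0.02 ± 0.14 (95% interval -0.25 to 0.28). Several calls of a difference were lost when any 1 of the libraries named next was left out. Adjusted p was 0.0512 to 0.0613 for Ccne2 without library 1 of DM-PBS or library 1 of DM-AA, and 0.0545 to 0.0565 for Dnmt1 without library 3 of DM-PBS or library 3 of DM-AA. It was 0.052 to 0.107 for Prim1 without library 2 of GM-PBS, library 2 of GM-AA, library 3 of DM-PBS or library 2 or 3 of DM-AA, and 0.0514 to 0.0992 for Lig1 without library 1 of GM-PBS, library 2 of GM-AA, library 2 or 3 of DM-PBS or library 2 or 3 of DM-AA. It was 0.0528 to 0.119 for Mcm10 without library 1 or 3 of GM-PBS, library 3 of GM-AA, library 1 or 3 of DM-PBS or library 1 or 2 of DM-AA. For Rpa2 it was 0.0551 to 0.122 without library 1 or 2 of GM-PBS, library 3 of GM-AA, library 1 or 2 of DM-PBS or library 1, 2 or 3 of DM-AA, and for Tk1 0.0554 to 0.108 without library 2 or 3 of GM-PBS, library 3 of GM-AA, library 1, 2 or 3 of DM-PBS or library 1 or 3 of DM-AA.

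**Figure D4:**
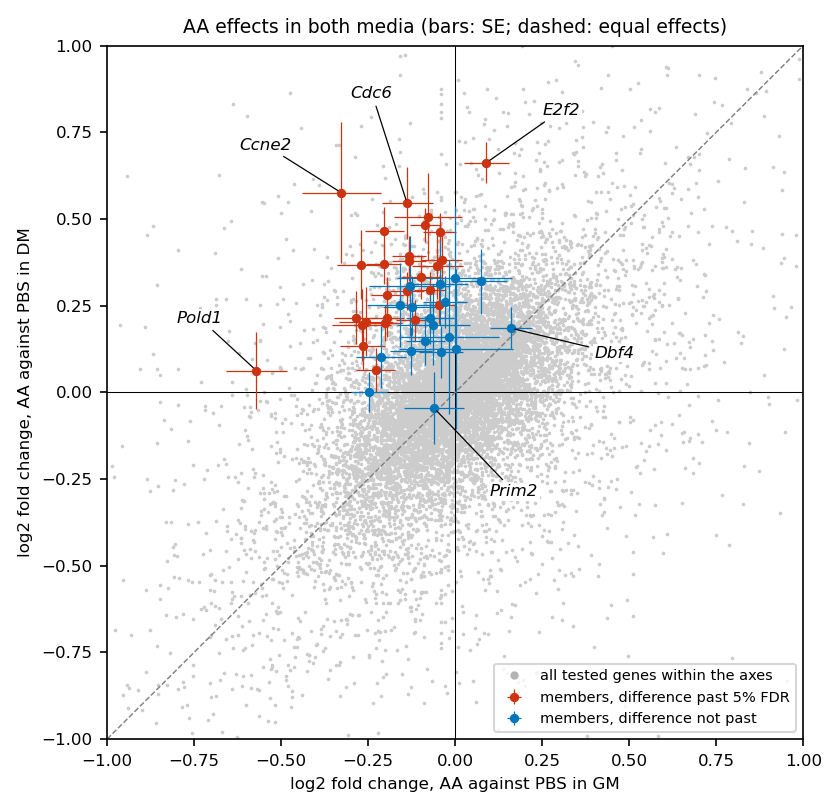
Log2 fold change with acetoacetate (AA) against PBS in GM (horizontal) and in DM (vertical), with SE bars for the 45 members; grey points are the tested genes within the axes and the dashed line marks equal effects. All 45 members lie above the dashed line, and red members passed 5% FDR for the difference.

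With acetoacetate in both media, DM still lay below GM. In this comparison 42 of 45 members were lower in DM, 2 were higher (E2f2 and Rfc3) and Dbf4 did not pass, against 26.3% of all genes lower and 25.9% higher. The median log2 fold change was -0.70, against 0.01 over all genes, and 7 members were at 50% of the GM level or less, a fall that 3.017% of all genes showed. The libraries were wholly apart and lower in 41 members, against 28.8% of all genes. E2f2 was read at 52.9, 50.5 and 53.7 CPM in GM-AA and 88.4, 97.00 and 89.7 in DM-AA, far apart, a log2 fold change of 0.81 ± 0.059 (edgeR adjusted p = 1.27e-13). Rfc3 was read at 30.3, 27.5 and 26.4 CPM and 34.3, 31.97 and 30.9, a log2 fold change of 0.20 ± 0.082 (edgeR adjusted p = 0.0358), lost without library 2 or 3 of GM-AA or library 1 or 2 of DM-AA (adjusted p 0.0594 to 0.153). Rfc5, called lower at -0.30 ± 0.11 (edgeR adjusted p = 0.0203), lost its call without library 1 of GM-AA or library 1 of DM-AA (adjusted p 0.0947 to 0.299). The deepest fall was again that of Ccne2, at -1.47 ± 0.15 (edgeR adjusted p = 2.88e-10).

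Set as a percentage of the mean CPM in GM-PBS, the median member stood at 91.7% in GM-AA, at 46.6% in DM-PBS and at 55.3% in DM-AA. In DM-PBS 27 members were under 50% of GM-PBS, and in DM-AA 11. Ccne2 went from 19.3% in DM-PBS to 28.6% in DM-AA, Cdc6 from 29.1% to 42.5%, Rrm2 from 32.4% to 45.3% and Cdk2 from 57.5% to 72.6%. E2f2 went from 118% to 186%. In 39 of the 45 members (86.7%) the group means fell in the order GM-PBS, GM-AA, DM-AA, DM-PBS, which 910 of the 12230 tested genes (7.44%) shared. The exceptions were E2f2, Cdc7, Dbf4, Prim2, Rfc3 and Rfc4. The order held for the summed level of each role group. For licensing the mean sums were 1527 ± 12.7 CPM (SD, n = 3) in GM-PBS and 1400.0 ± 43.2 in GM-AA, and in DM they were 702 ± 9.32 with PBS and 849 ± 8.37 with acetoacetate. For the primase and polymerase genes they were 382 ± 6.74, 338 ± 6.396, 194 ± 4.98 and 220.4 ± 9.59 in the same groups.

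**Figure D5:**
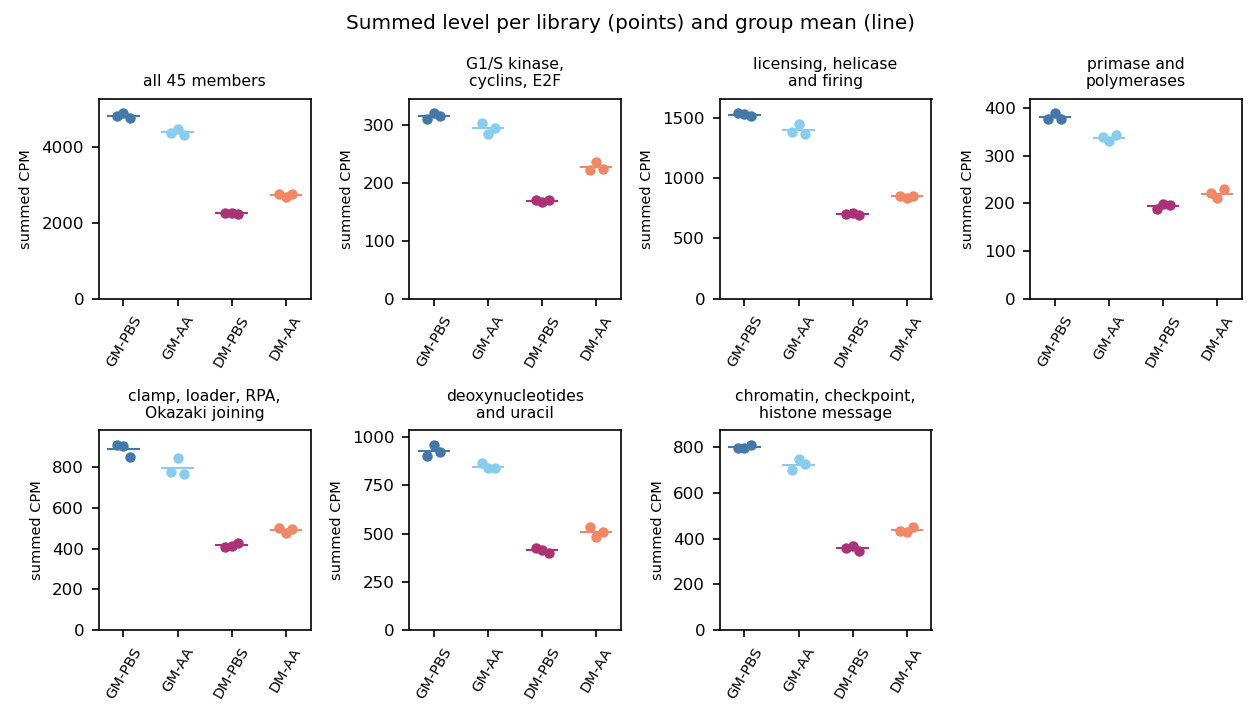
Summed CPM of all 45 members and of each role group in each library (points) with the group mean (line); vertical axes start at 0 and differ in scale. In every panel GM-PBS is highest, GM-AA next, then DM-AA, and DM-PBS lowest by group mean.

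Other genes of the pathway that are not among the 45 were counted list by list. Over all tested genes, the shares to set beside these counts are 27.4% lower and 27.0% higher in DM with PBS, 12.6% higher and 13.8% lower with acetoacetate in DM, and 9.76% higher and 11.0% lower with it in GM. Of 17 origin recognition, helicase and firing genes, 16 were lower in DM with PBS, and with acetoacetate 9 rose in DM and 2 rose and 2 fell in GM. Gins3, a GINS subunit, was lower in DM with PBS at -1.22 ± 0.08 (edgeR adjusted p = 8.17e-15) and higher with acetoacetate in DM at 0.76 ± 0.084 (edgeR adjusted p = 1.58e-08). Of 18 fork protection, checkpoint and recombination genes, all 18 were lower in DM with PBS; with acetoacetate 7 rose in DM, and 1 rose and 1 fell in GM. Brca1, a recombination gene, was lower in DM with PBS at -1.22 ± 0.062 (edgeR adjusted p = 8.23e-18) and higher with acetoacetate in DM at 0.26 ± 0.067 (edgeR adjusted p = 0.00393). Of 9 histone chaperone and chromatin genes, 6 were lower in DM with PBS, and with acetoacetate 7 rose in DM and 1 fell in GM. The counts in GM of these 3 lists lie near those shares or below them. Nasp, a histone chaperone, rose with acetoacetate in DM by 0.45 ± 0.06 (edgeR adjusted p = 4.73e-07).

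Further polymerase and clamp subunits and further nucleotide genes moved less evenly. Of 16 such subunits, 11 were lower and 1 higher in DM with PBS, and with acetoacetate 3 rose and 2 fell in DM and 2 rose and 3 fell in GM. Pold4, the small subunit of the same polymerase as Pold1, fell with acetoacetate in both media: by 0.82 ± 0.056 in GM (edgeR adjusted p = 7.66e-13) and by 0.75 ± 0.058 in DM (edgeR adjusted p = 5.16e-12), where Pold1 fell in GM and overlapped in DM. Rnaseh2c, a subunit of the nuclease that removes RNA primers, fell by 0.81 ± 0.11 in GM (edgeR adjusted p = 8.26e-07) and by 0.44 ± 0.1 in DM (edgeR adjusted p = 0.00112). Exons of other genes cover 24.6% of Pold4 on the same strand and 24.8% of Rnaseh2c on the opposite strand. Of 15 nucleotide genes, 12 were lower and 1 higher in DM with PBS, 2 rose with acetoacetate in DM, and 2 rose and 1 fell in GM. The acetoacetate counts of both lists lie near the shares over all genes or below them.

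The regulators upstream and the mitotic genes downstream did not all follow the replication genes. Of 27 Rb, E2F and cyclin genes, 16 were lower and 6 higher in DM with PBS, and with acetoacetate 13 rose and 5 fell in DM and 5 fell in GM. The 6 higher lie below the share of all tested genes, 27.0%. This list holds activators and inhibitors of the cycle together, so its counts mix opposite roles. Ccnd1, the cyclin of early G1, was lower in DM with PBS at -0.84 ± 0.048 (edgeR adjusted p = 1.71e-16). Ccnd1 fell with acetoacetate in both media, by 0.15 ± 0.047 in GM (edgeR adjusted p = 0.0176) and by 0.34 ± 0.05 in DM (edgeR adjusted p = 3.22e-06). Myc, a growth factor responsive transcription factor, also fell in both, by 0.77 ± 0.061 in GM (edgeR adjusted p = 3.19e-11) and 0.54 ± 0.07 in DM (edgeR adjusted p = 2.45e-07). E2f7, a repressor E2F, was lower in DM with PBS at -1.05 ± 0.058 (edgeR adjusted p = 6.25e-17), and its AA effects differed between media by 0.56 ± 0.081 (edgeR adjusted p = 2.67e-05).

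Of 24 genes of G2 and mitosis, 11 were higher and 8 lower in DM with PBS, with a median log2 fold change of -0.03, where 42 of the 45 replication genes were lower. Of all tested genes 27.0% were higher and 27.4% lower, so the 8 lower lie near that share. The proliferation marker Mki67, one of the 24, had a log2 fold change of -0.11 ± 0.056 (edgeR adjusted p = 0.0962). Ccna2, the cyclin of S phase and G2, was counted in the Rb, E2F and cyclin list. Its log2 fold change was -0.02 ± 0.049 (edgeR adjusted p = 0.763). With acetoacetate 20 of the 24 rose in DM and 5 fell in GM, against 12.6% and 11.0% of all tested genes. For the difference between media 19 passed with the higher value in DM, against 2.58% of all tested genes. In the other lists that count was 5 of 17 origin genes, 1 of 16 polymerase and clamp subunits and 1 of 15 nucleotide genes. It was 5 of 9 chaperone and chromatin genes, 5 of 18 fork genes and 10 of 27 Rb, E2F and cyclin genes. Ccna2 rose in DM by 0.31 ± 0.048 (edgeR adjusted p = 6.34e-06) and Mki67 by 0.22 ± 0.056 (edgeR adjusted p = 0.00369). The inhibitor Cdkn1a, which is raised at cell cycle exit, was also counted in the Rb, E2F and cyclin list. Cdkn1a was lower in DM than in GM with PBS at -0.27 ± 0.047 (edgeR adjusted p = 9.78e-06) and rose with acetoacetate in DM by 0.20 ± 0.047 (edgeR adjusted p = 0.00182).

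Muscle genes were read beside the replication genes. Of the 9 differentiated muscle markers tested, 3 were higher and 2 lower in DM with PBS, with a median log2 fold change of 0.16. These counts lie near the shares over all tested genes, 27.0% higher and 27.4% lower. With acetoacetate in GM 3 of the 9 were higher and 0 lower, against 9.76% and 11.0% of all tested genes. The summed CPM of all 10 differentiated muscle markers was 273 to 286 with PBS and 404 to 593 with acetoacetate in GM. In DM it was 564 to 770.0 with PBS and 1290.0 to 1410.0 with acetoacetate. Of the 9 that were tested, 8 rose with acetoacetate in DM, against 12.6% of all tested genes. Myog, the factor that starts differentiation, was higher in DM with PBS at 2.58 ± 0.097 (edgeR adjusted p = 3.07e-21) and higher with acetoacetate in DM at 0.94 ± 0.066 (edgeR adjusted p = 5.03e-13). The sum of 6 myoblast markers was 1880.0 to 1940.0 CPM with PBS and 2140.0 to 2220.0 with acetoacetate in GM. In DM it was 2130.0 to 2160.0 with PBS and 2420.0 to 2660.0 with acetoacetate. Most of each sum is Des, with 1430.0 to 1480.0 CPM in GM-PBS and 1660.0 to 1720.0 in GM-AA. Myod1 went the other way, from 217 to 232 CPM in GM-PBS to 165 to 186 in GM-AA and 163 to 168 in DM-PBS. The part of the state of differentiation in the levels of the replication genes was not tested. Markers of other cell types were near 0: 6 endothelial markers summed to at most 2.44 CPM, 6 of bone and cartilage to at most 2.22 and 6 immune ones to at most 4.83 in any library, and Emcn and Ibsp were at 0 in all. The 6 adipocyte markers summed to 10.6 to 12.6 CPM in GM-PBS and 3.55 to 4.19 in DM-AA, with Plin1 and Lep at 0, and the 6 epithelial ones to 11.0 to 15.6.

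Members with and without an E2F word in their window are set side by side here. In DM against GM with PBS the median log2 fold change was -1.12 over the 17 with a word and -1.14 over the 22 with a window and no word. With acetoacetate in DM the medians were 0.28 and 0.23, with 13 of the 17 and 11 of the 22 called higher, against 12.6% of all tested genes. In GM the medians were -0.13 and -0.08, with 7 of the 17 and 6 of the 22 called lower, against 11.0% of all tested genes. Of the members not called lower in DM with PBS, E2f2 and Rfc3 have a word and Dbf4 has none. These values are a description of these windows, with no test.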

How the data were processed

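Messenger RNA of 12 libraries of C2C12 cells was analysed, 3 in each of 4 groups, from total RNA extracted with TRIZOL and a standard Illumina library preparation, per the labels' protocols. Per the submitters' processing notes, the authors used the aligner BWA 0.5.9-r16 and the genome build mm9. How reads were assigned to genes, with which annotation and on which strand, is not given in the sources used here. Per the file headers, the deposited table holds raw read counts and RPKM values for 23446 genes, with each gene's summed exon length (a plain length, unit other). With 1 divisor for each library, counts and lengths gave back the deposited RPKM to within 0.000498%, and counts made up 63.2% to 64.9% of that divisor. No column was left unmatched to a sample.

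Counts were tested with edgeR 4.0.16 in R 4.3.3: filterByExpr by group (12230 genes kept), TMM, 1 quasi-likelihood model with 4 group means over the 12 libraries (residual degrees of freedom 8, biological coefficient of variation 4.08%), two-sided, Benjamini-Hochberg over all tested genes, threshold 5% FDR. Replicates differed beyond counting noise, with a chi-square per degree of freedom of 1.45 to 2.90. On counts simulated for the GM comparison over 12104 genes, the test recovered 56% of 50 genes changed 1.25-fold, 86% of 50 changed 1.5-fold, 93.9% of 49 changed 2-fold and 95.9% of 49 changed 3-fold, with 10 false calls among 174. The real GM comparison had 2534 calls, so the adjusted threshold was stricter in the simulation and these shares do not carry over directly. The members' median fold in GM was 0.917, a smaller change than any simulated. A member's 95% interval is the log2 fold change ± 1.96 SE. Alternatives were DESeq2 1.42.0, library totals without TMM, no filter, a fit on the compared groups only, removal of a GC and length trend, a replicate block and leaving out each library.

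Any of the 45 members could be named. Values per library are given for those with the largest change or the highest level of their role group, and for members set beside them. From other lists up to 4 genes with the smallest p in a comparison were eligible, plus Ccnd1, Ccna2, Mki67, Cdkn1a and Myog. Some results are not reported here. The members and lists were chosen with earlier results of these data known. Sequences are RefSeq's (GRCm38.p6). Overlaps of exons and near-identical copies came from GENCODE M21 (GRCm38, 98.5% of genes matched by name), not the build of the reads.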

Additional observations from a re-analysis of the deposited data

Results flagged for a closer look

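For 27 of the 45 members the effect of acetoacetate differed between differentiation and growth medium, by the test of that difference in the 4-group model (edgeR's quasi-likelihood test, 5% FDR). Of all 12230 tested genes, 2.58% passed with the higher value in DM and 2.67% with the lower. The values that follow are the effect in DM minus the effect in GM, as log2 fold changes, and each is above 0. In the group that opens S phase they were Cdk2 (0.43), Ccne1 (0.64), Ccne2 (0.90) and E2f2 (0.57). Among licensing and helicase genes they were Cdc6 (0.68), Cdt1 (0.42), Mcm2 (0.51), Mcm3 (0.37), Mcm4 (0.41), Mcm5 (0.58), Mcm6 (0.43) and Mcm10 (0.41). Among polymerase genes they were Prim1 (0.58), Pold1 (0.63) and Pole (0.50). In the clamp and Okazaki group they were Pcna (0.40), Rpa1 (0.30), Rpa2 (0.46), Lig1 (0.46) and Fen1 (0.51). In the nucleotide group they were Rrm1 (0.40), Rrm2 (0.57) and Tk1 (0.29). Among chromatin and checkpoint genes they were Chaf1a (0.53), Uhrf1 (0.47), Dnmt1 (0.32) and Clspn (0.67). No explanation was tested. With 3 libraries a group, no gap test for a single outlying value was applied within groups.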

How the results depend on the processing

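With library totals in place of TMM 1 member (Dbf4) was called higher with acetoacetate in GM in place of 0, and leaving out 1 library gave 0 to 1. In DM against GM with acetoacetate, the 2 members called higher became 1 without the low-count filter and 1 by DESeq2's Wald test, and 1 to 2 when 1 library was left out, Rfc3 being the one lost. All other counts of members stayed within 1.5 times. Leaving out 1 library gave 11 to 16 members lower in GM with acetoacetate, 23 to 28 higher in DM, 22 to 28 for the difference between media and 42 lower in DM with PBS each time. Over all settings these counts ran from 11 to 19, 22 to 29 and 21 to 30. No member's change reversed direction under any setting while called. Of 540 values with a library left out, 30 changed their side of the threshold in GM, 25 in DM, 44 for the difference, 6 for the media with acetoacetate and 0 for the media with PBS.

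Libraries with the same replicate number did not deviate together (correlations -0.0676 to 0.0823, against -0.0763 to 0.0816 for other numbers). Whether a number marks a shared culture or day is not stated in the labels, and these correlations cannot decide it. With the replicate number as a block, 15 members were lower in GM, 28 higher in DM, 42 lower in DM with PBS and 27 passed for the difference; over all genes 2444, 3109, 6588, 6332 and 590 passed, in GM, DM, the media with PBS, the media with acetoacetate and the difference, against 2534, 3230, 6654, 6389 and 641 without it. Depth limits Rfc4, Pole2, Ung and Ccne2, with 20 to 126 reads a library, and their errors are among the widest.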
